A study of Mus musculus with 24 samples.

Results

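The genes described here are 10 markers of GABAergic interneurons, chosen by name as a check of what the sorted nuclei held: Gad1, Gad2, Slc32a1, Sst, Npy, Vip, Pvalb, Lhx6, Dlx1 and Dlx2. All 10 are among the 25135 genes listed at each age. RNA was sequenced from nuclei of mouse cortex that carried the SUN1-GFP tag, a nuclear envelope protein fused to green fluorescent protein and switched on by Cre recombinase, and that were collected by fluorescence-activated nuclei sorting. WT mice were Kdm6b wt/wt, and Kdm6b-cKO mice were Emx1-Cre; Kdm6b f/f, both on the SUN1-GFP reporter background. Emx1-Cre acts in progenitors of the dorsal telencephalon, so Kdm6b is deleted and the tag switched on in their progeny; the Cre status of WT mice is not spelled out in the methods. The study compared 6 WT and 6 Kdm6b-cKO libraries at postnatal day 1 (P1) and again 6 of each at P30, 24 in all.

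GABAergic interneurons are the inhibitory local neurons of the cortex. They are born in the ganglionic eminences of the ventral telencephalon and migrate into the cortex, whereas Emx1-expressing progenitors of the dorsal telencephalon make the excitatory projection neurons of the cortex and, later, glia. Gad1 and Gad2 encode the enzymes that make GABA from glutamate, and Slc32a1 encodes the transporter that loads GABA into synaptic vesicles. Sst, Npy and Vip encode neuropeptides and Pvalb a calcium-binding protein, and all 4 mark classes of interneuron. Dlx1 and Dlx2 encode homeodomain factors of ventral progenitors and their progeny, and Lhx6 encodes a LIM homeodomain factor of interneurons from the medial ganglionic eminence.

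On mm9, the genome build of the values, 6 of the 10 genes lie on chromosome 2 and the other 4 on chromosomes 6, 10, 15 and 16. Dlx1 (71366170 to 71372038, plus strand) and Dlx2 (71381466 to 71384811, minus strand) are neighbours separated by 9427 bases. Antisense transcripts overlap Dlx1 and Gad1, and whether reads were counted by strand is not given in the sources used here, so reads of Dlx1 and of its antisense partner Dlx1as cannot be told apart. All 10 genes matched an entry among the RefSeq promoters of build GRCm38.p6. The cyclic AMP response element, the palindrome TGACGTCA, was present in the 250 bases before the start of Sst and of no other gene of the 10, and in 1.55% of all 32851 promoter windows. Its shorter form TGACGT, searched on both strands and contained in the palindrome, was present before Sst, Vip and Dlx2, and in 6.47% of all windows. The windows of Sst and Vip, the neuropeptide genes among these, are shown for context with the match in capitals. The Sst window is chr16:23890845-23891094 on the minus strand and the Vip window chr10:5638968-5639217 on the plus strand, each written 5′ to 3′.
Sst: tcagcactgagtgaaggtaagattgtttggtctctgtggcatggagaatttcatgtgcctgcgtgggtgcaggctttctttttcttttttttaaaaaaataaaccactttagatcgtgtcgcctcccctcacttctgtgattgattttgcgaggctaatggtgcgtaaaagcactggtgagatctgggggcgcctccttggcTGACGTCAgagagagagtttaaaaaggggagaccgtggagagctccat
Vip: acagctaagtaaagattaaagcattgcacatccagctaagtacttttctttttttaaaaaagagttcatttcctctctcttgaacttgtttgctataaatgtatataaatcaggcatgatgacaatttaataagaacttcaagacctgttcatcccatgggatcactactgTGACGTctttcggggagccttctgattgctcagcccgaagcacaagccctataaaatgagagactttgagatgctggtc

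Values are FPKM, which scale the fragments of a gene by its length and by library size, and the tables of both ages were scaled separately. Libraries carry the numbers 0 to 5 within a group, and these match no replicate number of the labels. Effective depth, read from the steps of 1 read in low values, ranged from 188000 to 3820000 reads at P1 and from 1940000 to 8330000 at P30. The shallowest libraries were Kdm6b-cKO 5 and 0 at P1 and Kdm6b-cKO 2, 3 and 4 at P30. Kdm6b itself spanned 16.9 to 26.4 FPKM in WT libraries and 17.5 to 28.1 FPKM in Kdm6b-cKO libraries at P30, and 24.9 to 51.0 against 15.0 to 38.4 FPKM at P1. This value over the whole gene did not separate the genotypes, whose names here are those of the labels. The paper measured Kdm6b by qRT-PCR in sorted SUN1-GFP+ nuclei and reported its efficient loss in Kdm6b-cKO. That is a different measure from FPKM over the whole gene. Nothing states that libraries of a group came from different animals, so p-values measure the spread between libraries. In bulk nuclei, fewer interneurons and less RNA per interneuron cannot be told apart.

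At P30 the mean of each of the 10 genes was higher in Kdm6b-cKO than in WT, by a ratio of means between 1.33 (Npy) and 3.10 (Dlx1). Averaged over the 10 genes, the log2(FPKM + 0.1) of the 6 Kdm6b-cKO libraries lay between 2.73 and 3.17. WT library 0, at 3.46, lay above all of these, and WT library 1, at 3.02, lay among them. WT libraries 2, 3, 4 and 5 lay lower, at 0.52, -0.35, 1.42 and 0.82. Over the 10 genes together, a few Kdm6b-cKO libraries thus did not carry the difference. Single genes were less even, and the highest Slc32a1 and Pvalb values of Kdm6b-cKO came from 2 and 3 libraries. No gene of the 10 passed the test across all genes at either age.

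Gad1 in the P30 WT libraries 0 to 5 was 23.5, 9.64, 2.99, 2.16, 4.71 and 3.33 FPKM. In Kdm6b-cKO libraries 0 to 5 it was 22.5, 23.7, 11.2, 11.0, 14.1 and 16.2 FPKM. WT library 0 lay among the highest Kdm6b-cKO libraries, and the other 5 WT libraries lay below every Kdm6b-cKO library. WT averaged 7.72 ± 8.16 FPKM and Kdm6b-cKO 16.5 ± 5.50 FPKM (± SD, n = 6 each). By limma, Gad1 differed by 1.54 on the log2 scale (SE 0.49) at an adjusted p of 0.218, and exact permutation of the genotypes (two-sided) gave p = 0.0238.

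Gad2, the second GABA-synthesizing enzyme, had a similar order. It was 7.23, 4.03, 0.854, 0.143, 1.32 and 1.00 FPKM in WT libraries 0 to 5. In Kdm6b-cKO it was 7.71, 10.2, 5.04, 4.51, 2.84 and 4.23 FPKM. Here both WT libraries 0 and 1 lay within the Kdm6b-cKO range, and the remaining 4 lay below it. Gad2 differed by 1.85 on the log2 scale (SE 0.67), with an adjusted p of 0.270 by limma and p = 0.0303 by exact permutation. Slc32a1, the vesicular GABA transporter, stayed under the minimum mean of 1 FPKM and was not tested across genes. It was 0.732, 1.34, 0.0637, 0, 0.322 and 0.135 FPKM in WT libraries 0 to 5 and 0.559, 0.285, 0.288, 1.91, 2.18 and 0.674 FPKM in Kdm6b-cKO. Kdm6b-cKO libraries 3 and 4 were the highest of all 12, and the other 4 lay within the WT range. Its recovered reads, not scaled for depth, in the WT libraries were 15, 21, 1, 0, 7 and 2, against 10, 6, 2, 13, 11 and 9 in Kdm6b-cKO, where 0 reads allows up to 3. These are few reads, and the groups overlapped in 3 WT libraries (exact permutation p = 0.126).

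Sst was the most abundant of the 10 genes at P30. The WT libraries held 307, 224, 27.1, 20.4, 54.6 and 82.2 FPKM and the Kdm6b-cKO libraries 215, 247, 222, 86.1, 77.6 and 175 FPKM. WT library 0 was the highest of all 12, and Kdm6b-cKO libraries 3 and 4 reached down to the level of WT library 5. Sst differed by 1.06 on the log2 scale, and the 95% interval ran from -0.28 to 2.39 (limma, adjusted p = 0.515). Npy, the other abundant neuropeptide gene, was 137, 70.8, 14.9, 8.75, 33.7 and 19.3 FPKM in WT and 91.9, 55.6, 44.2, 51.6, 68.0 and 66.2 FPKM in Kdm6b-cKO. WT library 0 was again highest, and WT libraries 2 to 5 lay below every Kdm6b-cKO library. For Npy the log2 difference was 1.00 and its 95% interval -0.17 to 2.17 (limma, adjusted p = 0.479). Vip was 19.9, 4.90, 1.75, 0.295, 5.16 and 2.26 FPKM in WT and 13.0, 12.3, 6.24, 10.7, 5.07 and 11.2 FPKM in Kdm6b-cKO. Here WT library 1 fell in with the low libraries, just under the lowest Kdm6b-cKO library, and library 4 was just above it. The log2 difference of Vip came to 1.58 with an SE of 0.70 (limma, adjusted p = 0.373).

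Pvalb, the calcium-binding marker of fast-spiking cells, showed the smallest difference and the widest overlap of the genes tested. It was 21.9, 36.9, 5.79, 9.58, 6.86 and 5.01 FPKM in WT and 11.3, 13.0, 28.6, 23.3, 42.4 and 5.19 FPKM in Kdm6b-cKO. In 5 of 6 WT libraries it lay within the Kdm6b-cKO range. Kdm6b-cKO libraries 2, 3 and 4, the shallowest at this age, held the highest Pvalb values of their genotype. With all libraries the log2 difference was 0.63 with an SE of 0.56 (limma, adjusted p = 0.691), and without those 3, a choice made once depth was known, it was -0.23.

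Among the transcription factors, Dlx1 had the largest difference of the 10 genes. It was 4.84, 4.14, 0.531, 0, 1.02 and 0.0682 FPKM in WT libraries 0 to 5, where 0 is the value as listed. In Kdm6b-cKO it was 4.15, 5.87, 6.16, 6.34, 6.69 and 3.66 FPKM. The Kdm6b-cKO libraries were close together, WT libraries 0 and 1 lay within their range, and the other 4 WT libraries were below it. Dlx1 differed by 2.78 on the log2 scale with an SE of 0.85 (limma, adjusted p = 0.202; exact permutation, p = 0.0108). The overlapping Dlx1as averaged 1.66 ± 1.72 FPKM in WT libraries against 5.01 ± 3.13 FPKM in Kdm6b-cKO libraries (± SD, n = 6 each). Lhx6 was 3.20, 2.44, 0.166, 0.130, 0.241 and 0.941 FPKM in WT and 3.55, 5.68, 4.02, 0.722, 2.07 and 2.46 FPKM in Kdm6b-cKO. Kdm6b-cKO library 3 was low for Lhx6 although its Dlx1 was high. Lhx6 differed by 1.85 on the log2 scale with an SE of 0.73 (limma, adjusted p = 0.317). Dlx2 was near the limit of detection, with recovered reads of 9, 8, 0, 0, 3 and 0 in WT and 8, 7, 7, 2, 0 and 5 in Kdm6b-cKO, and was not tested across genes (exact permutation p = 0.182).

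**Figure D1:**
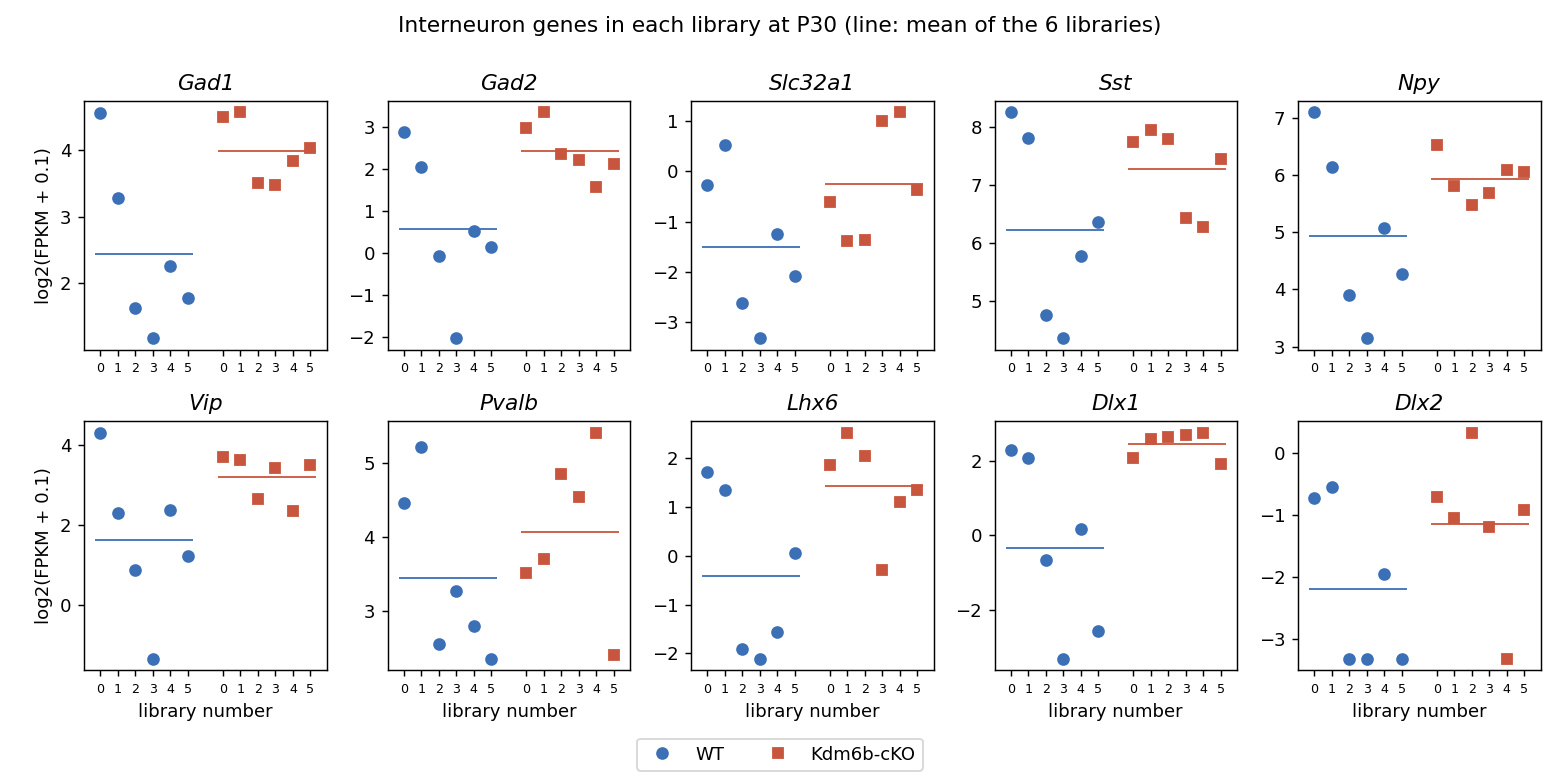
Each panel plots 1 gene at P30, with log2(FPKM + 0.1) on the vertical axis and the library number of WT (circles) and Kdm6b-cKO (squares) on the horizontal axis; lines are means of 6 libraries. WT libraries 0 and 1 lie with the Kdm6b-cKO libraries in most panels, and WT libraries 2 to 5 lie lower, as for Gad1 at 2.16 to 4.71 FPKM.

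The count per library gives the same picture over the genes together. Of the 8 genes tested at P30, WT libraries 2 and 3 each lay below every Kdm6b-cKO library in 7, and WT libraries 4 and 5 each in 6. Over all 13289 genes tested, this held for 9.59%, 11.7%, 8.95% and 9.87% in these libraries. WT library 0 lay below every Kdm6b-cKO library in 0 of the 8 genes (14.6% of all genes) and WT library 1 in 2 (11.8%). Looked at from the other side, Kdm6b-cKO libraries 0 to 5 lay above every WT library in 2, 4, 2, 1, 2 and 0 of the 8 genes, against 18.9%, 14.5%, 25.5%, 24.8%, 28.3% and 21.2% of all genes. No Kdm6b-cKO library stood apart in the way the low WT libraries did. Relative to Slc17a7, the vesicular glutamate transporter of cortical projection neurons, Gad1 per 100 FPKM of Slc17a7 was 17.9, 5.63, 1.51, 1.22, 2.83 and 1.76 FPKM in WT libraries 0 to 5. The same measure was 29.0, 31.0, 7.11, 5.17, 6.55 and 20.6 FPKM in Kdm6b-cKO. Slc17a7 itself spanned 131 to 198 FPKM in WT libraries and 76.5 to 216 FPKM in Kdm6b-cKO libraries, of which 0, 1 and 5 were the lowest, so that the ratio set these 3 further apart than Gad1 alone did.

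The 2 highest libraries of a genotype held between 68.3% and 87.3% of the summed WT level of each gene, and between 39.6% and 69.3% of the summed Kdm6b-cKO level. Even levels would give 33.3%, and in all 10 genes the WT share was the larger. All 6 Kdm6b-cKO libraries exceeded the WT median in 8 genes and 5 of 6 did in the other 2, Pvalb and Dlx2. With any 2 Kdm6b-cKO libraries left out, over 15 pairs, the log2 difference stayed above 0 in each gene. For Gad1 it ranged from 1.26 to 1.78, for Dlx1 from 2.64 to 3.00 and for Pvalb from 0.10 to 1.19. With any 2 WT libraries left out it also stayed above 0 but moved further, from 1.01 to 2.27 for Gad1, from 1.47 to 4.04 for Dlx1 and from 0.23 to 1.96 for Sst. These are values without a test. The share over all genes was not computed for any of these counts, so they cannot be read as a trait of the 10 genes.

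**Figure D2:**
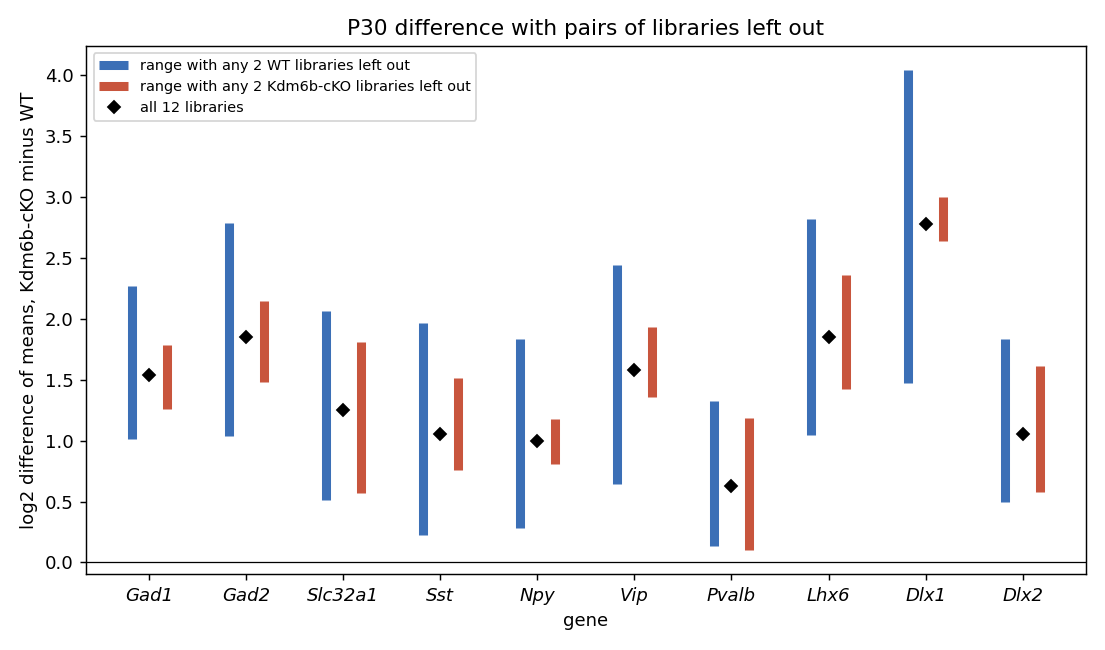
The log2 difference of means at P30 (Kdm6b-cKO minus WT, vertical axis) is plotted for each gene with all 12 libraries (diamonds) and as the range over all 15 pairs left out of WT or of Kdm6b-cKO (bars). The WT bar is the longer in all 10 genes and each bar stays above 0, down to 0.10 for Pvalb. The share of all genes with such bars was not computed.

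Across the whole table, limma called 37 of 13289 genes at P30, 0.278%, at an adjusted p under 0.05 and more than 2-fold, and 0 of the 8 interneuron genes tested; 7 of the 37, 0.0527% of all genes, were higher in Kdm6b-cKO. With single libraries left out the count over all genes ranged from 2 (without WT library 2, 3 or 5) to 43. At an unadjusted p under 0.05 and higher in Kdm6b-cKO, 5 of the 8 passed (Gad1, Gad2, Vip, Lhx6 and Dlx1), against 5.34% of all genes. Exact permutation gave p under 0.05 for 3 (Gad1, Gad2 and Dlx1), and without WT library 0 for 6, with Npy, Vip and Lhx6 added. All 8 had a log2 fold change above 0, as 45.2% of all genes did, 6 of the 8 had one above 1, as 2.33% did, and their median was 1.56 beside -0.05 over all genes. Without WT library 2, WT library 3 or Kdm6b-cKO library 1, 3 of 8 passed at the unadjusted threshold, and without WT library 0 or 1, 7 of 8 did. The share of all genes at that threshold was not computed for these fits. Limma array weights gave Kdm6b-cKO libraries 2, 3 and 4 weights of 0.24, 0.27 and 0.19, and the WT libraries 0.74 to 2.66. The lowest WT weights, 0.79 and 0.74, fell on WT libraries 0 and 1, those with high interneuron genes. With array weights 7 of the 8 genes were called, among 530 genes in all.

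The P30 difference was not the same on both sides of a split by the ribosomal RNA precursor Rn45s, which was under 1000 FPKM in 4 libraries and over it in 8. Directions over all genes were not counted on either side, so the counts below cannot be read as a trait of the 10 genes. Among the 8 libraries over 1000 FPKM, 5 WT and 3 Kdm6b-cKO, all 10 genes were higher in Kdm6b-cKO, with a median log2 difference of 1.71. Gad1 differed there by 1.58 on the log2 scale (exact permutation, two-sided, p = 0.0357, where 56 splits allow 0.0179 at the smallest). Under 1000 FPKM there were 3 Kdm6b-cKO libraries and only WT library 0, and 9 of the 10 genes were lower in Kdm6b-cKO, with a median of -0.35. With 1 WT library the smallest p is 0.25, and that library is one of the 2 WT libraries with high interneuron genes.

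At P1, 8 of the 10 interneuron genes were above 0 in all 12 libraries, and Vip and Pvalb were not. WT averaged 32.5 ± 6.07 FPKM of Gad1 and Kdm6b-cKO 25.5 ± 8.78 FPKM (± SD, n = 6 each), a log2 difference of -0.41 with an SE of 0.27 (limma, adjusted p = 0.505). Single WT libraries held 22.5 to 39.5 FPKM of Gad1 and single Kdm6b-cKO libraries 13.3 to 35.1 FPKM, with the lowest value in the shallow Kdm6b-cKO library 0. No WT library was set apart as at P30. Gad2 spanned 10.0 to 17.5 FPKM in WT libraries and 5.88 to 15.5 FPKM in Kdm6b-cKO libraries, a log2 difference of -0.35 (limma, adjusted p = 0.576). Slc32a1 spanned 0.980 to 4.20 and 0.269 to 9.19 FPKM, with a log2 difference of 0.27 below its SE of 0.70.

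Sst and Npy were again far above the other genes. Sst in WT libraries 0 to 5 was 656, 667, 349, 294, 352 and 725 FPKM, and in Kdm6b-cKO 967, 555, 1401, 476, 556 and 671 FPKM. The groups overlapped, and the log2 difference of 0.59 had a 95% interval from -0.15 to 1.33 (limma, adjusted p = 0.452). Npy had a single high library, Kdm6b-cKO 2 at 1263 FPKM, while the other Kdm6b-cKO libraries held 205 to 347 FPKM and WT 207 to 569 FPKM. Vip, and Pvalb, which is switched on after birth, were near 0. Vip, with a log2 difference of -1.29, was listed at 0 in 4 Kdm6b-cKO and 2 WT libraries and rested on at most 7 recovered reads in any library. Pvalb was listed at 0 in 5 Kdm6b-cKO libraries and at 14.0 FPKM in number 5, the shallowest of the series, and WT libraries held 0 to 2.46 FPKM. Its log2 difference was -2.31 with a 95% interval from -5.10 to 0.49 (limma, adjusted p = 0.435).

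Lhx6 showed the clearest difference at P1, in the opposite direction to P30. It was 35.5, 28.7, 24.2, 35.4, 27.9 and 36.1 FPKM in WT libraries 0 to 5 and 3.90, 18.9, 18.9, 20.7, 29.4 and 12.2 FPKM in Kdm6b-cKO. In 5 of 6 Kdm6b-cKO libraries Lhx6 lay below every WT library, and library 4 lay within the WT range. Lhx6 differed by -1.06 on the log2 scale with an SE of 0.39 (limma, adjusted p = 0.240; exact permutation, p = 0.00866), beside a median of -0.25 over all genes at P1. Without the shallow Kdm6b-cKO libraries 0 and 5 it was -0.52. Dlx1 spanned 21.5 to 38.9 FPKM in WT libraries and 7.92 to 43.2 FPKM in Kdm6b-cKO libraries, with a log2 difference of -0.41. Dlx2 spanned 4.94 to 12.9 and 3.13 to 20.5 FPKM, with a log2 difference of -0.03. At P1, 0 of 16250 genes were called by limma (0.0%), so 0 of the 9 interneuron genes tested were. At an unadjusted p under 0.05, 1 of the 9, Lhx6, passed, against 14.5% of all genes. Of the 9, 3 were higher in Kdm6b-cKO, against 36.8% of all genes. P1 libraries also differed in olfactory receptor transcripts. In the 5 Kdm6b-cKO and 2 WT libraries with at most 100 such genes above 0 FPKM, 8 of 10 genes were lower in Kdm6b-cKO. In the other libraries, 1 Kdm6b-cKO and 4 WT, 3 of 10 were lower. Directions over all genes were not counted within either part, so these counts cannot be read as a trait of the 10 genes.

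**Figure D3:**
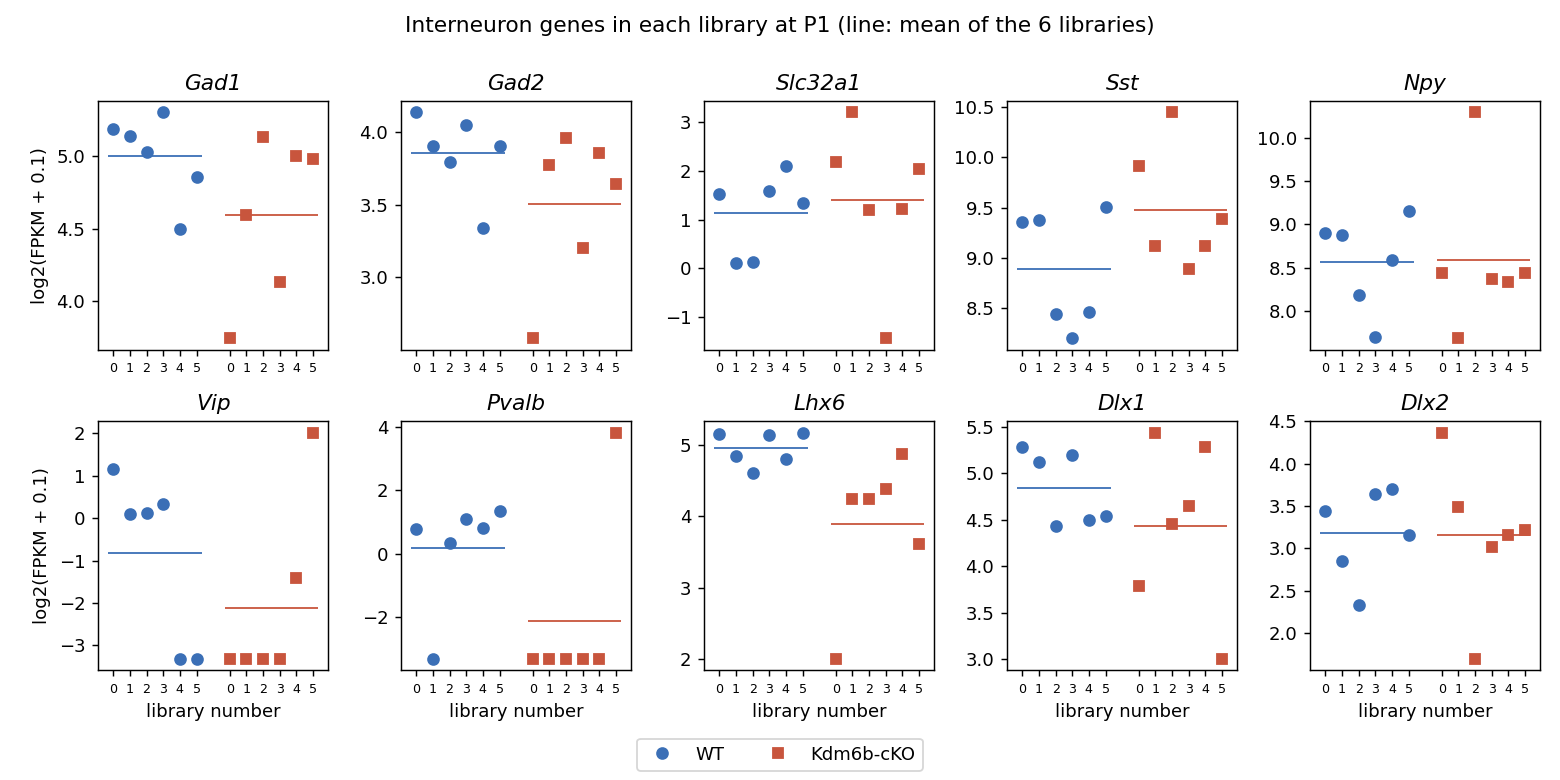
Each panel plots 1 gene at P1 in the same way, with log2(FPKM + 0.1) against library number for WT (circles) and Kdm6b-cKO (squares). The genotypes overlap in most panels, and Lhx6 is below every WT library in 5 of 6 Kdm6b-cKO libraries.

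The genotype difference at P30 less that at P1 was above 0 in each of the 7 genes tested at both ages. Its median on the log2 scale was 2.20 over these 7 and 0.13 over all genes. For Gad1 the difference was 1.94 with an SE of 0.58 (limma, adjusted p = 0.171). Lhx6 gave 2.91 with an SE of 0.85 (adjusted p = 0.164) and Dlx1 3.19 with an SE of 0.97 (adjusted p = 0.178). For Sst it was 0.46, with a 95% interval from -1.06 to 1.99. Of the 7 genes 0 were called by limma, as was 0.00791% of the 12644 genes tested, and 5 of 7 passed at an unadjusted p under 0.05 and a positive difference, against 6.88% of all genes. Without WT P30 library 0, which held the most Gad1 of the WT libraries, Gad1 was called (2.36, limma adjusted p = 0.0392, within a range of 0.0392 to 0.288 over all single libraries left out). In that fit 9 of 12631 genes were called.

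**Figure D4:**
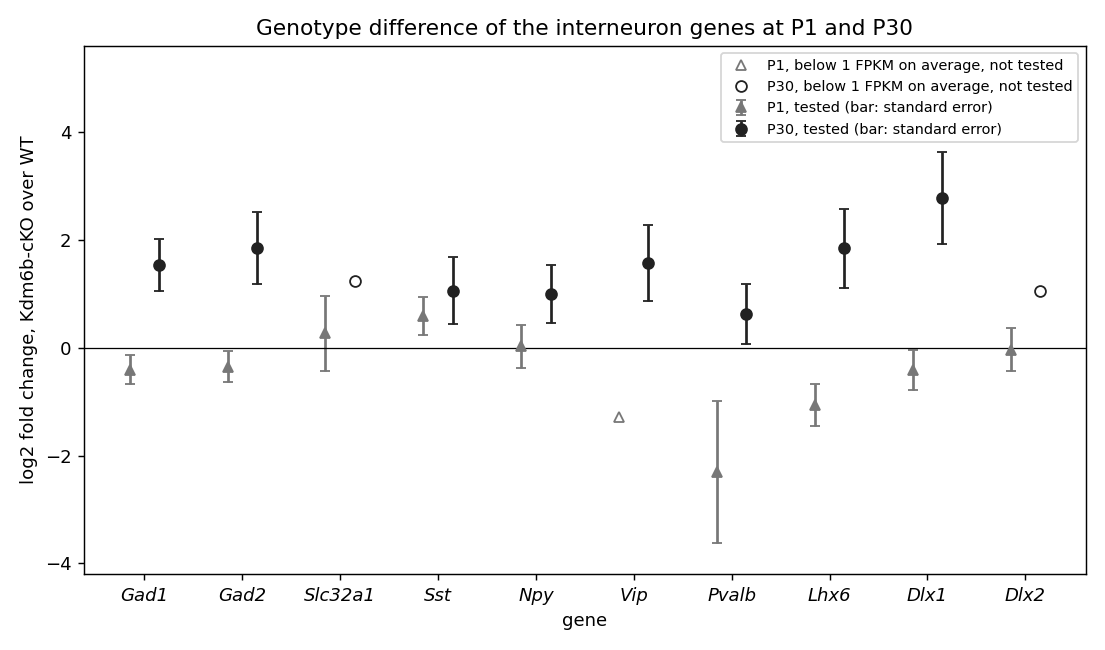
The log2 fold change of Kdm6b-cKO over WT (vertical axis) is plotted for each gene at P1 (triangles) and P30 (circles), with the standard error as bars; open symbols are genes under a mean of 1 FPKM, not tested. All P30 values lie above 0, from 0.63 for Pvalb to 2.78 for Dlx1, and the P1 values lie on both sides.

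A list of 45 other interneuron genes, which includes the homeobox genes Dlx5 and Dlx6 and markers of single classes, was set beside the 10 genes at P30. Of 34 tested, 28 were higher and 6 lower in Kdm6b-cKO, with a median log2 fold change of 0.88 beside -0.05 over all genes, and 0 were called. At an unadjusted p under 0.05, 16 were higher and 1, Cck, was lower (log2 difference -0.48). The mean log2(FPKM + 0.1) of the list was 1.82 and 1.22 in WT libraries 0 and 1, -0.40 to 0.52 in WT libraries 2 to 5, and 1.15 to 1.88 in Kdm6b-cKO. WT libraries 2 to 5 were again the low ones. The 3 genes of the list with the largest differences were Dlx6 at a log2 difference of 2.54 (limma, adjusted p = 0.290), Tac1, the gene of substance P, with 1.84 (adjusted p = 0.382), and Crh, the gene of corticotropin-releasing hormone, with 1.77 (adjusted p = 0.472). Nos1, the neuronal nitric oxide synthase, was the gene of the list whose groups did not overlap, at 0.430 to 2.44 FPKM in WT and 2.48 to 4.67 FPKM in Kdm6b-cKO; such separation upward was seen in 0.888% of all genes and in 0 of the 8 tested of the 10. At P1, 18 of 45 were higher and 27 lower, with a median of -0.24.

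Marker lists of other cells the sort could hold were set beside these values. The list of striatal projection neurons, another GABAergic type, had 4 genes higher and 10 lower of 14 tested at P30, a median of -0.18, and the most different genes were Drd1 (-0.81), Rarb (0.74) and Ppp1r1b (-0.69). Olfactory bulb interneuron genes had 4 higher and 4 lower of 8 tested, with Calb2 (1.12), Synpr (0.55) and Gng4 (0.50) most different. Calb2 and Synpr are also on the list of other interneuron genes, so the lists are not independent. Glutamatergic neuron genes of the Emx1 lineage had 6 higher and 12 lower of 18, a median of -0.24, and Rorb (-1.37), Emx1 (0.98) and Nrgn (-0.83) were most different. Their mean log2(FPKM + 0.1) was 3.86 and 4.08 in WT libraries 0 and 1, 4.23 to 4.40 in WT libraries 2 to 5, and 3.71 to 4.35 in Kdm6b-cKO. None of these lists had a gene called.

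The mean log2 level of the microglia list was also lower in WT libraries 2 to 5, at -1.17 to -0.38, than in every Kdm6b-cKO library, at -0.33 to 1.58. Csf1r, the receptor that microglia need to survive, was 3.46, 1.98, 0, 0, 0.196 and 0.0478 FPKM in WT libraries 0 to 5, and 0.520 to 4.34 FPKM in Kdm6b-cKO. Aif1, another microglia gene, did not follow this order and was lowest in WT library 0, at 0.694 FPKM. Of 7 microglia genes tested of 11, 5 were higher and 2 lower in Kdm6b-cKO with a median of 1.30, 0 were called, and Csf1r (2.22), Aif1 (1.78) and C1qb (1.52) differed most. The summed level was 13.5 to 50.7 FPKM in WT and 20.5 to 60.1 FPKM in Kdm6b-cKO. Endothelial and mural markers summed to 8.92 to 22.0 FPKM in WT and 11.6 to 18.5 FPKM in Kdm6b-cKO, with 3 of 13 tested: Cldn5 (1.01), Slco1c1 (-0.40) and Pdgfrb (-0.20). Thalamic and other subcortical markers had 5 higher and 2 lower of 7 tested, with a median of 0.33, and Ntng1 (0.66) was above every WT library in all 6 Kdm6b-cKO libraries. Of the 2 lower, Slc17a6, another vesicular glutamate transporter, was called lower (-2.98 on the log2 scale, limma adjusted p = 0.0408), and Rora was -1.24. Calb2, among the 5 higher, was 1.12 and is also on the lists of other interneuron genes and of olfactory bulb interneurons. Astrocyte genes had 2 higher and 8 lower of 10, with Fgfr3 (-0.54), Slc1a3 (-0.45) and S100b (0.42) most different. Of 12 oligodendrocyte genes 12 were lower and 3 were called, Mbp (-1.27), Mag (-1.59) and Sox10 (-1.46), with Opalin at -1.93. The part of any of these cells in the interneuron values was not tested.

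Of the genes tested at P30 and outside the 10, those most like the mean log2 level of Gad1, Gad2 and Slc32a1 over the 12 libraries were Gm14204 (Pearson r = 0.97), Slc22a8 (0.95), Crhbp (0.94), Dlx6os1 (0.92), Tmem35a (0.92), Btbd11 (0.92), Slc6a13 (0.91), Tac1 (0.90), Col1a2 (0.90) and Col19a1 (0.90). The correlation is a description over 12 libraries that share their scaling, and 4 of these genes, Crhbp, Dlx6os1, Btbd11 and Tac1, are on the list of other interneuron genes. Slc6a13, Slc22a8 and Col1a2 are known from fibroblasts of the leptomeninges, the membranes that cover the cortex. Slc6a13 was 7.01, 9.32, 0.0846, 0, 0 and 0.449 FPKM in WT libraries 0 to 5 and between 5.68 and 15.3 FPKM in Kdm6b-cKO. Col1a2 was 2.02, 2.34, 0, 0.0387, 0.0477 and 0 FPKM in WT and 0.837 to 2.87 FPKM in Kdm6b-cKO. WT libraries 0 and 1 lay within the Kdm6b-cKO range in both genes. Slc22a8 was 1.43 and 1.28 FPKM in these libraries and at most 0.193 FPKM in the other 4, all below the lowest Kdm6b-cKO library at 1.88 FPKM.

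A list of 14 leptomeningeal fibroblast genes, written after that likeness was seen and therefore not tested, summed to 294, 148, 62.0, 62.9, 51.9 and 60.8 FPKM in WT libraries 0 to 5 at P30. In Kdm6b-cKO it summed to between 98.5 and 224 FPKM. WT libraries 2, 3, 4 and 5 lay below every Kdm6b-cKO library in 10, 9, 9 and 8 of the 14 genes, and WT libraries 0 and 1 in 2 and 1. Slc6a13, Slc22a8 and Col1a2, found by that likeness, are on the list. These counts were thus in part fixed by the choice of genes. Over the 13289 genes tested, the share was 9.59%, 11.7%, 8.95% and 9.87% for WT libraries 2 to 5. For WT libraries 0 and 1 it was 14.6% and 11.8%. The genes tested averaged at least 1 FPKM, a filter not applied to the 14. Lum, for example, reached at most 0.397 FPKM at P30, so the counts are over unlike sets of genes. In WT libraries 2 to 5 the genes at 0 numbered 6, 8, 5 and 8 of the 14. At P1 the sums were 232 to 438 FPKM in WT and 224 to 523 FPKM in Kdm6b-cKO, and 5 of the 6 WT libraries lay below every Kdm6b-cKO library in 0 of the 14 genes. The part of such cells in the interneuron values was not tested.

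**Figure D5:**
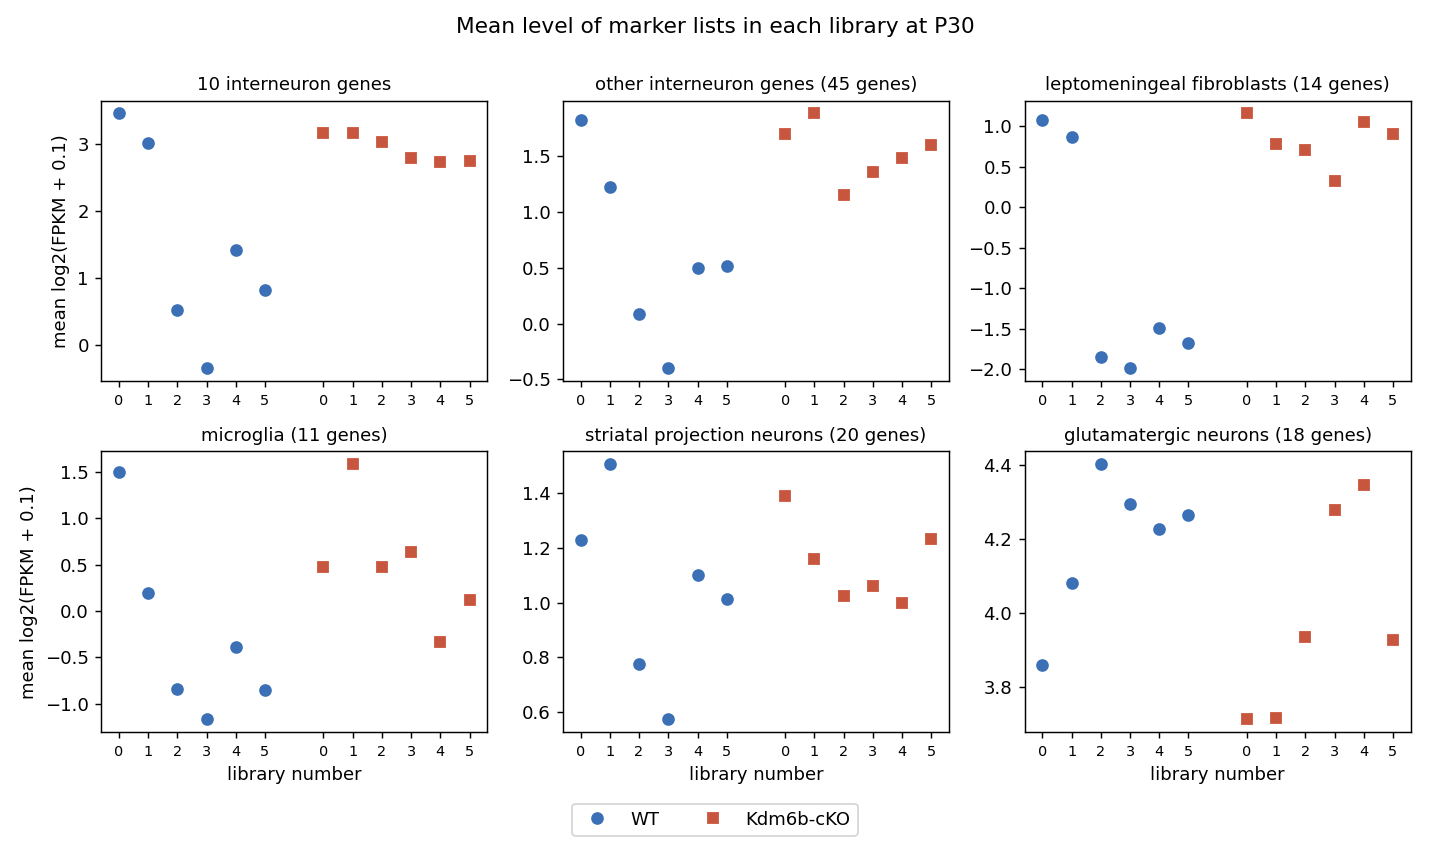
Mean log2(FPKM + 0.1) of 6 marker lists (vertical axes, each with its own range) is plotted against library number at P30 for WT (circles) and Kdm6b-cKO (squares). Both interneuron lists, leptomeningeal fibroblasts and microglia are lower in WT libraries 2 to 5 than in every Kdm6b-cKO library, while glutamatergic genes lie at 4.23 to 4.40 in those WT libraries. The leptomeningeal list was written after the likeness to Gad1, Gad2 and Slc32a1 was seen.

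FPKM is per length, so levels may be ordered between genes within an age. At P30 the order of the mean over 12 libraries was Sst (145 FPKM), Npy (55.2), Pvalb (17.5), Gad1 (12.1), Vip (7.73), Gad2 (4.09), Dlx1 (3.62), Lhx6 (2.13), Slc32a1 (0.707) and Dlx2 (0.339). Sst was above Npy in 12 of 12 libraries and Vip above Gad2 in 12 of 12. Pvalb was above Gad1 in only 8, 5 WT and 3 Kdm6b-cKO, and Gad2 above Dlx1 in only 8, 5 WT and 3 Kdm6b-cKO. The order of these neighbours thus changed between libraries, and it was not tested. At P1 the order was Sst (639 FPKM), Npy (434), Gad1 (29.0), Dlx1 (27.3), Lhx6 (24.3), Gad2 (13.2), Dlx2 (9.80), Slc32a1 (3.06), Pvalb (1.91) and Vip (0.789). Gad1 was above Dlx1 in 7 of 12 libraries, 5 WT and 2 Kdm6b-cKO, and Dlx1 above Lhx6 in 8, 3 WT and 5 Kdm6b-cKO, so these 3 were not separated. Variation was on the WT side at P30, where the coefficient of variation was larger in WT than in Kdm6b-cKO for all 10 genes (1.06 against 0.33 for Gad1), and on the Kdm6b-cKO side at P1, where it was larger in Kdm6b-cKO for all 10 (0.34 against 0.19 for Gad1). The share over all genes was not computed, so these counts are not a trait of the 10 genes. At P1 the limma array weights, fitted over all genes tested, were 0.17 to 1.63 in Kdm6b-cKO and 1.42 to 3.60 in WT. A lower weight marks a library with more spread.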

How the data were processed

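RNA of SUN1-GFP+ cortical nuclei was measured. The authors aligned reads to mm9 with HISAT2 and deposited FPKM values per library and gene, made with Cuffdiff; the versions and strand setting are not given in the sources used here. Their deposited comparisons (Cuffdiff log2 fold changes, test statistics, p-values and q-values) were not used. Here limma 3.58.1 (R 4.3.3; trend, two-sided) was fitted within each age to log2(FPKM + 0.1) of all genes that averaged 1 FPKM or more. The p-values were adjusted by Benjamini-Hochberg over every gene in the fit, and a gene was called at an adjusted p under 0.05 with over 2-fold change. Fold changes on this scale understate low genes. The effect was compared between ages over 24 libraries with an intercept per age. Single genes were compared by exact two-sided permutation tests of 6 against 6 libraries (924 splits, smallest p 0.00216; 20 tests, unadjusted). The limma fit was tested on simulated data. Effective depth assumed fragments of 200 bases, and recovered reads were accepted within 0.1 of a whole read. These reads cover counting error only. Other steps used Python 3.11.15, scipy 1.17.1, numpy 2.4.6, matplotlib 3.10.9 and pandas 2.3.3. The 10 genes and the lists were chosen with earlier results of these data known. Named were the 10 genes, and of each list the genes called and the 3 with the largest P30 difference; other named list genes, among them Cck, Nos1 and Ntng1, were chosen after their values were seen. Alternatives covered pseudocounts, filters, scaling, the trend, robust fits, array weights, a batch term and libraries left out. No label names a batch: the batch term is a split made here from expression, by Rn45s at P30 and by olfactory receptor genes at P1. Some genes of the lists are not reported here by name. Reads, chromatin data and stains were not analysed here.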

Additional observations from a re-analysis of the deposited data

Results flagged for a closer look

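Over 40 groups of 6 libraries (10 genes, both genotypes and ages), 4 held a library far from the others of its group on the log2 scale. For normally spread values, chance alone would give about 1 group in 20. The flagged groups of Vip and Pvalb held libraries at 0, so that rate does not apply to them. All 4 were at P1. Npy was 1263 FPKM in Kdm6b-cKO library 2, the highest of its group. Pvalb was 14.0 FPKM in Kdm6b-cKO library 5 and was listed at 0 in the other 5, and Vip was 3.95 FPKM in the same library, the shallowest of the series at 188000 effective reads, where Vip rests on 1 read. Pvalb was listed at 0 in WT library 1, the lowest of its group. No group at P30 held such a library.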

How the results depend on the processing

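At P30 the counts of genes called stayed at 0 under every alternative run except array weights, which called 7 of 8; for the difference between ages array weights called 2 of 7, and leaving out single libraries gave 0 to 1. At P1 the count was 0 throughout. The P30 log2 fold changes of the 8 genes tested stayed positive under every alternative fit over both sides of the Rn45s split but 1: Pvalb was -0.23 without the shallow libraries (under 3000000 effective reads at P30, under 500000 at P1; added after the depths were seen). With array weights the adjusted p at P30 was 0.00378 for Gad1, 0.0185 for Dlx1 and 0.0117 for Lhx6, and under the other alternatives that keep every library or leave out several it reached at most 0.383, 0.365 and 0.519. The exact permutation p of Gad2 at P30 ranged from 0.00433 to 0.0649 with single libraries left out, and was above 0.05 without WT library 2 or 3 or Kdm6b-cKO library 0 or 1. Genes of the 10 with a permutation p under 0.05 numbered 3 with all libraries, 6 without WT library 0 (Npy 0.0195, Vip 0.00433 and Lhx6 0.0216 added), 5 without WT library 1 and 2 to 4 without any other. No share of all genes was computed for permutation. Over all genes, 37 were called at P30, 2 to 43 with single libraries left out, 550 with the batch term (the Rn45s split), 530 with array weights and 415 without the shallow libraries. Directions at P1 were less stable. Array weights gave -0.21 for Slc32a1 and 0.010 for Dlx1, quantile normalization -0.15 for Sst and -0.62 for Npy, and the batch term -0.16 for Npy and 0.000433 for Dlx2. Without the shallow libraries Slc32a1 was -0.087 and Dlx1 0.11. Single libraries left out gave -0.095 to 0.84 for Slc32a1, -0.31 to 0.21 for Npy and -0.27 to 0.26 for Dlx2. With pairs left out (added after the data were seen), the values past 0 were -0.38 (Kdm6b-cKO pairs) and -0.24 (WT pairs) for Slc32a1, -0.36 and -0.28 for Npy, 0.37 and 0.21 for Dlx2, and 0.11 for Dlx1 (Kdm6b-cKO pairs). The cause of these changes was not tested. No paired analysis was possible because the library numbers of the values match no replicate number of the labels.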
